A study of Mus musculus with 2 samples.

Results

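A set of 10 genes of lipid droplet formation were followed across the cell types of the mouse brain: Fitm2, Bscl2, Plin2, Plin3, Plin4, Hilpda, Acsl3, Dgat1, Dgat2 and Gpat4. They were listed by symbol, as 10 of the 32285 genes counted, and not by a cut on measured values. Earlier results of these data were known when the list was made. Lipid droplets are stores of neutral lipid that grow out of the endoplasmic reticulum. Acyl-CoA synthetases and acyltransferases make the triglyceride, seipin and the FIT proteins of the reticulum help it to gather and bud, and perilipins coat the finished droplet and govern access of lipases. In the brain, droplets are known from microglia of aged and diseased tissue, from astrocytes and from ependymal cells.

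The data are 2 droplet-based single-cell libraries (10x Genomics 3' v3.1) of dissociated whole brain from 6-month-old APP-KI mice, which carry a knock-in of App as a model of Alzheimer's disease. Both libraries share that background, and they differ in Fit2, the protein encoded by Fitm2: the genotypes were APP-KI Fit2-WT and APP-KI Fit2-Mut. The series sets out to disrupt Fit2 in macrophages, but the driver of that disruption, the altered part of the gene and the number of animals per library are not given in the sources used here. With 1 library per genotype there are no replicates, so no difference between the libraries could be set against variation between animals, and no p-value is given.

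After removal of 124 and 155 barcodes called as doublets, the Fit2-WT library held 5209 cells with a median of 6817 UMIs (unique molecules counted) and the Fit2-Mut library 5824 cells with a median of 7376. The libraries shared 9 cell barcodes. Clusters were named from fixed marker lists and are written as "like" because the names rest on markers alone, and 14 named types had at least 30 cells in each library. Neuron-like cells numbered only 24 and 37 and stayed below that limit, so this suspension of whole brain says little about neurons. A level is given in CPM, the UMIs of a gene summed over the cells of a type and scaled to the summed UMIs of that type, with its 95% Poisson interval. A ratio is Fit2-Mut over Fit2-WT with an exact 95% interval. These intervals cover counting error only and are too narrow where few cells hold many UMIs. A ratio counts as past 1.5-fold at 1.5 or above, or at 1 over 1.5 or below, where the libraries had 20 or more UMIs between them.

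Stretches of 300 bases around the start of 3 members are shown because their levels carry patterns described below: Fitm2, the gene altered in the series, was highest in ciliated ependymal-like cells, while Plin2 and Hilpda are known to be induced by low oxygen. The sequences come from RefSeq on GRCm38.p6, from 250 bases before to 50 after the start, written 5′ to 3′ on the gene's strand. Of the 10 members, 7 had an entry in that table. Capitals in Fitm2 (chr2:163472580-163472879, minus strand) mark GTTGCC, a half-site of the RFX factors that act on genes of cilia, which 12.5% of 32851 promoters of the same length held on either strand. Capitals in Plin2 (chr4:86670010-86670309, minus strand) and Hilpda (chr6:29272238-29272537, plus strand) mark the core of the hypoxia response element, ACGTG or GCGTG on either strand, which 43.8% of promoters held. The window of Plin2 had 3 matches, of which 2 overlap in a palindrome, and that of Hilpda had 1.
Fitm2: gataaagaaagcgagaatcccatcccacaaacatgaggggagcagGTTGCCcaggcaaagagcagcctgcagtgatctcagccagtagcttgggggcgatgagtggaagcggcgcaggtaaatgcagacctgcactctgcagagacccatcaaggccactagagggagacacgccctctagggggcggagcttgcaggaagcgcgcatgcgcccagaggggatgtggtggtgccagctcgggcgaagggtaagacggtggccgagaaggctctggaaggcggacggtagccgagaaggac
Plin2: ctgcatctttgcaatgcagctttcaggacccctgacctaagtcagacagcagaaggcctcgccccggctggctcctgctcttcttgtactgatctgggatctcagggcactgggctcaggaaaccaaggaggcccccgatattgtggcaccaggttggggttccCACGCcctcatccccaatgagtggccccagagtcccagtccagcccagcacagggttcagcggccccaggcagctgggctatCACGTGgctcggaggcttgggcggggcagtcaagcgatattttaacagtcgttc
Hilpda: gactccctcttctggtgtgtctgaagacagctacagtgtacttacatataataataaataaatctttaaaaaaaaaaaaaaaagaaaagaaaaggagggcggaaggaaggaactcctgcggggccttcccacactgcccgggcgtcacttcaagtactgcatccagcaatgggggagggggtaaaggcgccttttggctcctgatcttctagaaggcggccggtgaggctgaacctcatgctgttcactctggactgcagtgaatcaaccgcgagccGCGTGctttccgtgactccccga
A match describes letters in a window and is not a site of binding. The hypoxia core was also present in windows of Acsl3, Bscl2 and Fitm2, so among the 7 genes with an entry it did not set Plin2 and Hilpda apart.

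The members were spread very unevenly over cell types, and their patterns differed from each other. By level, the long-chain acyl-CoA synthetase gene Acsl3 was highest in astrocyte-like cells, Plin3 in oligodendrocyte-like cells, Dgat2 and Fitm2 in ependymal-like cells, and Dgat1 and Plin2 in neutrophil-like cells. The highest level and the largest part of the UMIs lay in the same type for Acsl3, Plin3 and Dgat2, but not for Fitm2, Dgat1 or Plin2. Bscl2 was present in each of the 7 types with at least 100 cells per library, at 19.4 to 49.9 CPM in Fit2-WT and 28.9 to 47.6 CPM in Fit2-Mut. By point value, the cell type with the highest level was the same in both libraries for 9 of the 10 members, Gpat4 being the exception. For Plin2 and Plin4 in both libraries, and for Bscl2 and Hilpda in Fit2-WT, the highest type was not resolved from the second. The interval of the ratio between those types held 1. The same share over all genes was not computed. The plot of levels by cell type shows these patterns side by side for the 2 libraries.

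**Figure D1:**
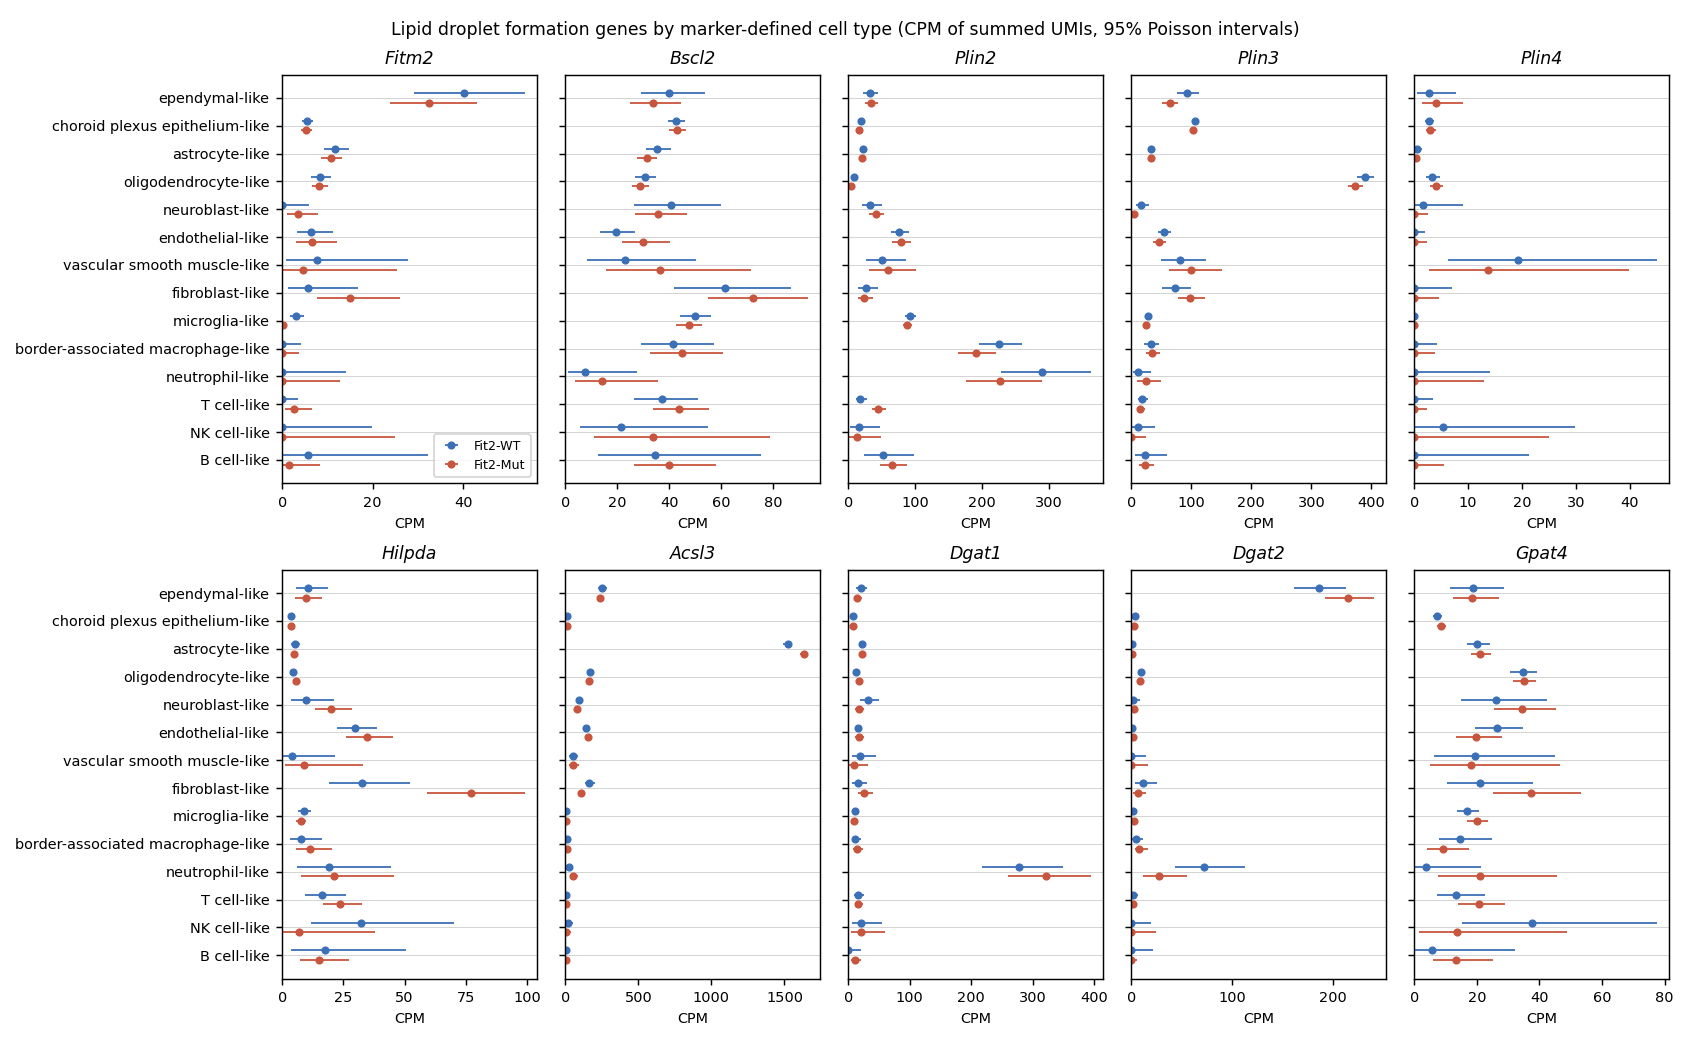
Level of each of the 10 genes (CPM of summed UMIs, linear axes that differ between panels) in 14 cell types named from markers, with Fit2-WT in blue and Fit2-Mut in red. Points are the 2 libraries and bars are 95% Poisson intervals. Acsl3 stood at 1522 and 1632 CPM in astrocyte-like cells, and the 2 libraries lie close together for most pairs of gene and type.

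Fitm2 encodes the reticulum protein that partitions triglyceride into budding droplets, and it is the targeted gene. It lies on chromosome 2 (mm10, 163466379 to 163472629, minus strand), with 2310001K24Rik overlapping on the opposite strand. The 550 microglia-like cells of Fit2-WT held 17 of its UMIs (2.95 CPM, 1.72 to 4.72), and the 579 of Fit2-Mut held 1 (0.137 CPM, 0.00346 to 0.761). The ratio was 0.0464 (0.00111 to 0.296), and 13 of the Fit2-WT UMIs lay in the cluster led by Spp1 and Gpnmb. A 3' tag can lie outside the altered part of a gene, so the count reads the transcript and not the mutation. In all cells but microglia-like ones the levels were 7.69 and 7.78 CPM, a ratio of 1.01 (0.864 to 1.19).

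Outside microglia, Fitm2 was highest in ependymal-like cells, the ciliated lining of the ventricles. Their level was 40.1 CPM in Fit2-WT (29.3 to 53.7) and 32.4 CPM in Fit2-Mut (23.8 to 43.0), and 33.3% and 27.9% of them held a UMI. These cells were 2.07% and 2.34% of all cells and held 14.7% and 13.3% of all Fitm2 UMIs, while choroid plexus epithelium-like cells held 30.1% and 24.9%. Among types with more than 20 UMIs in each library, astrocyte-like cells followed at 11.7 and 10.7 CPM. Oligodendrocyte-like cells came next at 8.32 and 8.17 CPM, then choroid plexus epithelium-like cells at 5.48 and 5.30 CPM. The ependymal-like intervals did not overlap those of these 3 types in either library, while astrocyte-like and oligodendrocyte-like intervals overlapped. With types set by the share of markers in each cell, which called 592 and 628 cells ependymal-like in place of 108 and 136, the ependymal-like level over the astrocyte-like one went from 3.23 to 0.929. No Fitm2 UMI was counted in NK cell-like, neutrophil-like or border-associated macrophage-like cells. For the macrophage-like cells a count of 0 allowed up to 4.14 and 3.78 CPM by the Poisson interval, so a level like that of Fit2-WT microglia-like cells was not detectable there. Fitm2 did not reach 1.5-fold in any of the 7 types compared below in which it had 20 UMIs or more.

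Bscl2 encodes seipin, the reticulum protein that holds the neck of a growing droplet. Its level was highest in fibroblast-like cells, at 61.5 CPM in Fit2-WT (42.0 to 86.8) and 72.3 CPM in Fit2-Mut (54.9 to 93.5), but 15 of the 58 Fit2-Mut UMIs came from a single cell, and without the 5 cells of each library with most UMIs the level over that of microglia-like cells went from 1.37 to 0.921. The removed cells held 34.4% and 41.4% of fibroblast-like UMIs, but 7.99% and 7.76% of microglia-like ones. Microglia-like cells had 49.9 and 47.6 CPM and choroid plexus epithelium-like cells 42.8 and 43.1 CPM. The fibroblast-like and microglia-like intervals overlapped in Fit2-WT, and not in Fit2-Mut. Endothelial-like cells had 19.4 CPM in Fit2-WT (13.6 to 26.8) and 30.1 CPM in Fit2-Mut (22.1 to 40.2), intervals that overlap, a ratio of 1.56 (0.984 to 2.48). Bscl2 overlaps AC129217.1 on its own strand and Gng3 on the other, and reads of AC129217.1 could not be told apart from its own.

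Of the synthesis enzymes, ACSL3 activates fatty acids at the reticulum and moves to nascent droplets. In astrocyte-like cells Acsl3 had 1522 CPM in Fit2-WT and 1632 CPM in Fit2-Mut, and a UMI in 88.9% and 93.1% of cells. Those cells were 23.0% and 25.1% of all cells and held 80.5% and 82.1% of all Acsl3 UMIs. Ependymal-like cells came next at 255 and 240 CPM, then oligodendrocyte-like cells at 167 and 165 CPM. Microglia-like cells had 6.24 and 8.06 CPM, with a UMI in 5.82% and 8.81% of cells although their median depth of 9690 and 11323 UMIs was above the 4380 and 5131 of astrocyte-like cells. Free RNA, as read from barcodes holding 10 to 100 UMIs, had 492 and 473 CPM of Acsl3, and made up an estimated 4.26% and 5.71% of microglia-like UMIs. At those shares free RNA alone would give more Acsl3 than was counted in these cells. The estimate is therefore too high for this gene in microglia-like cells. Reads of Utp14b, which lies within Acsl3 on the same strand, could not be told apart where the exons overlap.

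Over all cells, Acsl3 was at 264 CPM in the Fit2-WT library and 318 CPM in the Fit2-Mut library, a ratio of 1.20 (1.18 to 1.23), while within astrocyte-like cells the ratio was 1.07 (1.04 to 1.10). In the 5 astrocyte-like clusters the ratios lay between 0.996 and 1.08. The cluster with the highest Acsl3, led by Agt and Itih3 (2222 and 2227 CPM), held 26.0% (Fit2-WT) and 34.1% (Fit2-Mut) of all astrocyte-like UMIs. The clusters led by Kcnd2 (810 and 850 CPM) and Lama3 (781 and 845 CPM) had less than the cluster led by Crym and Lhx2 (1885 and 1877 CPM). Their intervals did not overlap those of the 2 high clusters in either library. The low clusters were also shallower, with medians of 2989 and 3438 UMIs per cell in the cluster led by Kcnd2 against 5782 and 6085 in that led by Agt, and the part of depth in the levels was not tested.

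GPAT4 adds the first acyl chain to glycerol-3-phosphate and can move onto growing droplets. Oligodendrocyte-like cells had Gpat4 at 34.7 and 35.0 CPM, neuroblast-like cells 26.1 and 34.3 CPM and astrocyte-like cells 20.2 and 21.1 CPM. The highest level stood in NK cell-like cells in Fit2-WT, on 7 UMIs, and in fibroblast-like cells in Fit2-Mut, on 30 UMIs, with intervals that overlap that of oligodendrocyte-like cells in both cases. Choroid plexus epithelium-like cells, at 7.38 and 8.49 CPM, lay below oligodendrocyte-like and astrocyte-like cells with no overlap of intervals.

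DGAT1 and DGAT2 are unrelated enzymes for the last step of triglyceride synthesis, and their transcripts were highest in different types. Dgat2 was at 186 CPM in Fit2-WT ependymal-like cells (162 to 213) and 216 CPM in Fit2-Mut (192 to 241). A UMI was found in 78.7% of ependymal-like cells of each library, and these cells held 53.3% and 59.96% of all Dgat2 UMIs. Astrocyte-like cells had 5 and 10 UMIs, 0.826 and 1.19 CPM, with a UMI in 0.417% and 0.685% of cells. Neutrophil-like cells were second in both libraries, at 72.4 CPM (43.6 to 113) and 27.9 CPM (12.1 to 55.1), below ependymal-like cells with no overlap of intervals. Oligodendrocyte-like cells had 9.96 and 9.04 CPM. With types set by the share of markers in each cell, the ependymal-like level over the neutrophil-like one went from 4.01 to 0.830.

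Dgat1 instead was highest in neutrophil-like cells, at 278 CPM in 70 Fit2-WT cells (218 to 350) and 321 CPM in 61 Fit2-Mut cells (259 to 394). The other 13 types were at or below 32.6 CPM in Fit2-WT and 26.2 CPM in Fit2-Mut. Neutrophil-like cells were 1.34% and 1.05% of cells and held 11.6% and 11.4% of Dgat1 UMIs, against 21.5% and 22.6% in astrocyte-like cells. A few cells carried much of this: 5 cells of each library held 41.1% (Fit2-WT) and 56.5% (Fit2-Mut) of the neutrophil-like UMIs. Dgat2 in the same cells had 19 UMIs (72.4 CPM) in the Fit2-WT library against 8 UMIs (27.9 CPM) in the other, a ratio of 0.386 (0.146 to 0.924). The 2 groups of neutrophil-like cells were not equally clean: the summed markers of choroid plexus epithelium were at 899 CPM in Fit2-WT, with 6 of 8 markers at 0, and at 18273 CPM in Fit2-Mut, with 1 of 8 at 0. Microglia markers were at 312 and 3036 CPM and neutrophil markers at 172922 and 126563 CPM, and the part of these differences in the Dgat2 ratio was not tested.

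Among the coat proteins, PLIN2 is the perilipin found on droplets of most cells, and its protein is degraded when no droplet holds it. Plin2 was highest in neutrophil-like cells, at 290 CPM in Fit2-WT (228 to 362) and 227 CPM in Fit2-Mut (175 to 289), and in border-associated macrophage-like cells, at 226 CPM (196 to 259) and 191 CPM (164 to 220). The intervals of these 2 types overlapped in each library, and their order turned without the 5 cells of each library with most UMIs (from 1.24 to 0.975) and with cells thinned to 1000 UMIs (0.782). Microglia-like cells had 92.8 and 87.7 CPM and endothelial-like cells 76.4 and 78.6 CPM. Microglia-like cells held more Plin2 UMIs than any other type, 33.1% in Fit2-WT and 34.9% in Fit2-Mut, at 10.6% and 9.94% of cells. Oligodendrocyte-like cells were lowest.

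The border-associated macrophage-like cluster also had the monocyte genes Plac8 and Chil3 among its leading genes. At a finer clustering it came apart into macrophage-like cells, with Plin2 at 119 CPM in Fit2-WT and 117 CPM in Fit2-Mut, and monocyte-like cells, with 349 and 400 CPM. The intervals of the 2 did not overlap in either library. Choroid plexus epithelium markers in the undivided cluster were at 8116 CPM in Fit2-WT and 557 CPM in Fit2-Mut, and their part in its levels was not tested.

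PLIN3 moves between the cytosol and small droplets. Plin3 was at 389 CPM in Fit2-WT oligodendrocyte-like cells (375 to 404) and 373 CPM in Fit2-Mut (362 to 385), followed by choroid plexus epithelium-like cells at 106 and 102 CPM. Oligodendrocyte-like cells held 53.3% and 60.2% of Plin3 UMIs. T cell-like cells had 18.2 and 15.4 CPM, and microglia-like cells 28.6 and 24.2 CPM.

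PLIN4 is a perilipin known from adipose tissue and muscle. Plin4 had 185 UMIs in all, of which choroid plexus epithelium-like cells held 45 and 50 (2.68 and 3.01 CPM) and oligodendrocyte-like cells 24 and 41 (3.27 and 3.99 CPM). The highest level, 19.3 and 13.6 CPM in vascular smooth muscle-like cells, rested on 5 and 3 UMIs, and that cluster also had the pericyte genes Rgs5 and Higd1b among its leading genes. No Plin4 UMI was found in microglia-like, endothelial-like, T cell-like, fibroblast-like or neutrophil-like cells of either library. For microglia-like cells that allowed up to 0.640 and 0.504 CPM. Plin4 overlaps Hdgfl2 on the opposite strand.

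HILPDA inhibits the triglyceride lipase ATGL and is induced by low oxygen. Hilpda was highest in fibroblast-like cells, at 32.7 CPM in 60 Fit2-WT cells (19.0 to 52.3) and 77.3 CPM in 81 Fit2-Mut cells (59.3 to 99.1). The intervals did not overlap, and the ratio was 2.37 (1.37 to 4.32), with a UMI in 23.3% and 40.7% of cells. This type was below the limit of 100 cells per library set for the counts of ratios. Its choroid plexus epithelium markers were at 638 and 4608 CPM, and their part was not tested. In Fit2-WT, NK cell-like cells were second for Hilpda at 32.2 CPM, on 6 UMIs. Endothelial-like cells had 29.6 and 34.7 CPM, and choroid plexus epithelium-like cells were lowest among the larger types at 3.63 and 3.55 CPM.

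**Figure D2:**
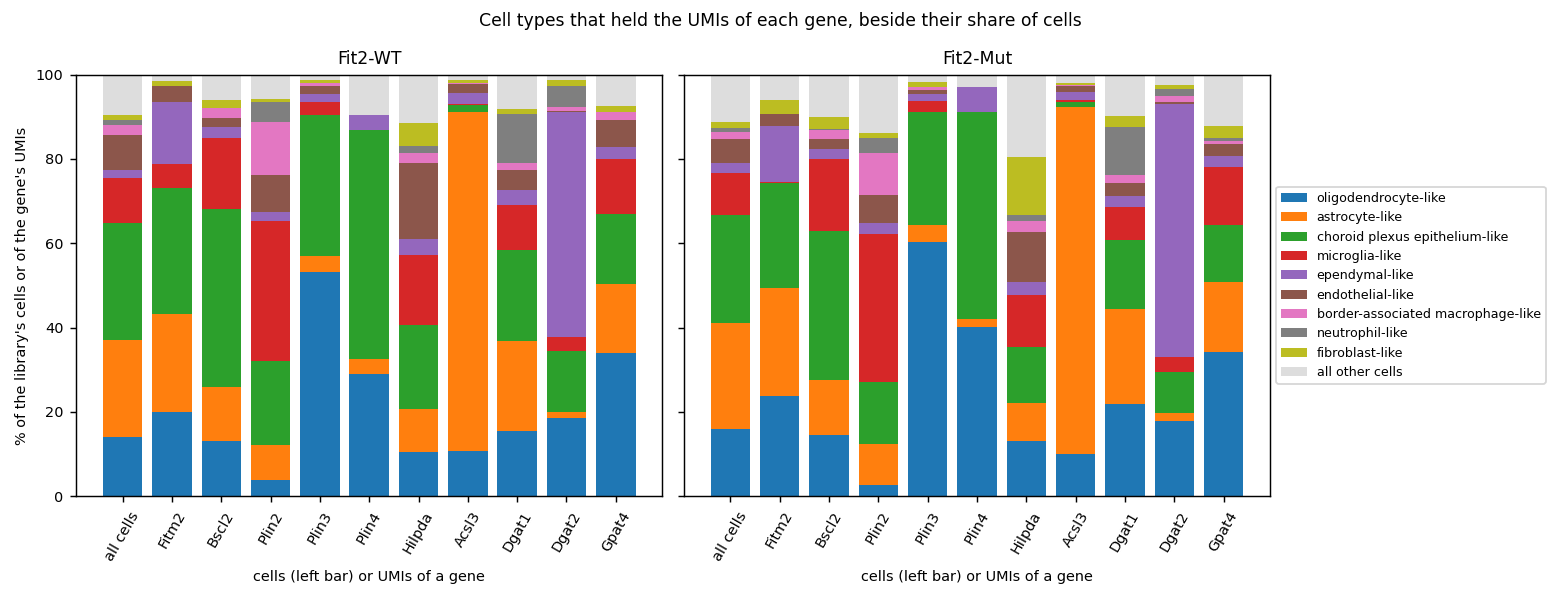
Share of each library's cells (left bar of each panel) and of the UMIs of each gene (other bars) held by 9 cell types, with all other cells in grey, for Fit2-WT (left) and Fit2-Mut (right). Astrocyte-like cells were 23.0% and 25.1% of cells and held 80.5% and 82.1% of Acsl3 UMIs, and ependymal-like cells, at 2.07% and 2.34% of cells, held 53.3% and 59.96% of Dgat2 UMIs.

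The levels also differed among clusters of a single cell type. The order was the same in both libraries for the genes given here, apart from Plin2 in the smallest microglia-like cluster. The members and their pathway genes had been left out of the genes used to cluster. Oligodendrocyte-like cells formed 2 clusters. In the cluster led by Klk6 and Anln, Plin3 was at 631 CPM in Fit2-WT (607 to 657) and 619 CPM in Fit2-Mut (598 to 641). In the cluster led by Opalin and Il33 it was at 117 CPM (106 to 129) and 102 CPM (93.5 to 112). A UMI was found in 91.1% and 93.8% of cells of the former and in 41.2% and 43.3% of the latter, whose median depths were 12422 and 13470 UMIs against 7622 and 8398.

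Dgat2 had the opposite order in these clusters. It was at 2.32 and 3.15 CPM in the cluster with high Plin3 and at 18.6 and 15.5 CPM in the other, although the latter was the shallower. Acsl3 was also lower in the cluster led by Klk6, at 140 and 123 CPM against 198 and 211 CPM. Gpat4 was alike in both, at 35.5 and 37.1 CPM against 33.7 and 32.7 CPM, with overlapping intervals.

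Among microglia-like cells, Plin2 followed the cluster. The cluster led by Spp1, Gpnmb and Lpl, genes known from microglia around amyloid plaques, had 113 CPM in Fit2-WT (103 to 124) and 98.5 CPM in Fit2-Mut (90.2 to 107), a ratio of 0.873 (0.769 to 0.991). The cluster led by Cox6a2 and Tyrobp had 61.5 and 39.6 CPM on 48 and 25 UMIs. Its choroid plexus epithelium markers were at 16147 CPM in Fit2-WT and 1371 CPM in Fit2-Mut, and their part was not tested. The cluster led by Tmem119 and P2ry12, markers of resting microglia, had 12.4 CPM in Fit2-WT (5.66 to 23.5) and 35.1 CPM in Fit2-Mut (24.0 to 49.6). Here the intervals of the 2 libraries did not overlap, with 9 UMIs in 102 cells against 32 UMIs in 105 cells and a ratio of 2.84 (1.32 to 6.76). A UMI was found in 6.86% and 21.9% of those cells. Border-associated macrophage markers there were at 1.38 CPM in Fit2-WT, with 6 of 7 at 0, and at 21.9 CPM in Fit2-Mut, with 1 of 7 at 0. T cell markers were at 0 and 13.2 CPM, and the part of either list in the ratio was not tested. The order of these 3 clusters by point value was the same in both libraries, but the intervals of the latter 2 overlapped in Fit2-Mut. A further cluster, led by the cell division genes Birc5 and Mki67, had only 4 and 19 cells, with 6 Plin2 UMIs in Fit2-WT (77.3 CPM, 28.4 to 168) and 65 in Fit2-Mut (131 CPM, 101 to 167), so with it included the order differed between the libraries.

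**Figure D3:**
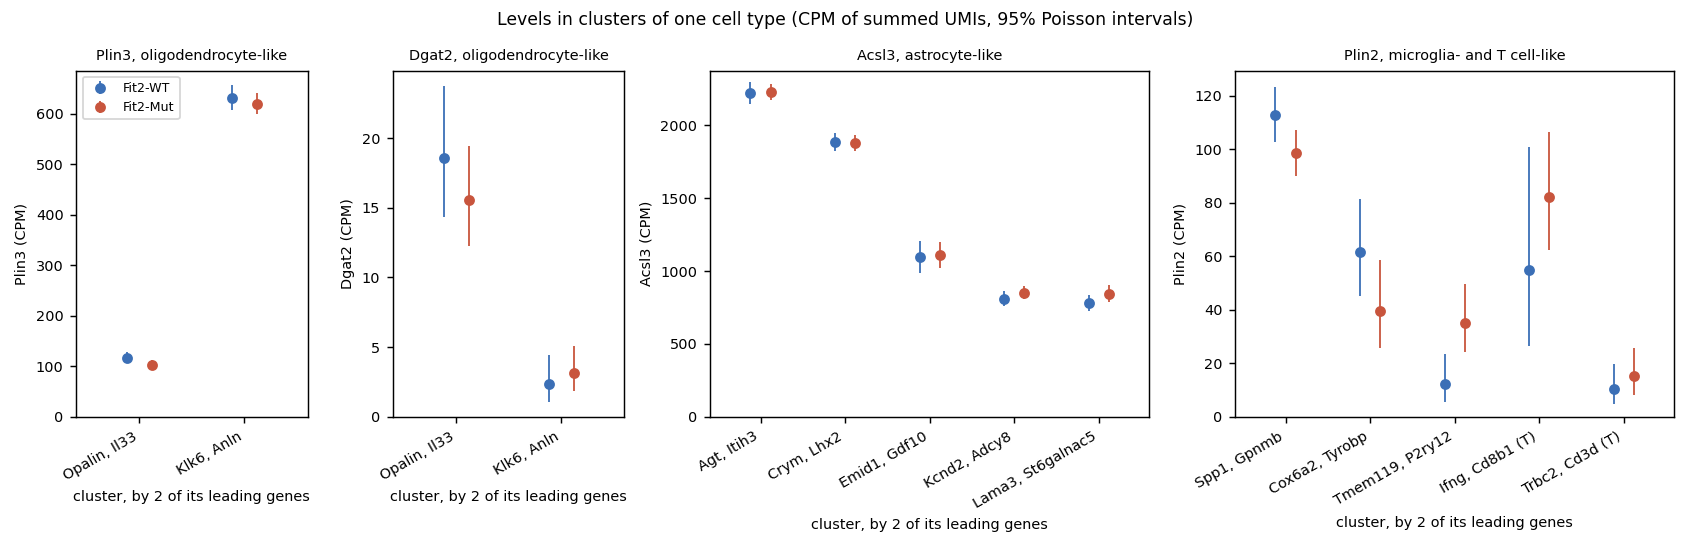
Level (CPM, linear axes from 0) of Plin3 and Dgat2 in 2 oligodendrocyte-like clusters, of Acsl3 in 5 astrocyte-like clusters and of Plin2 in 3 microglia-like and 2 T cell-like clusters (marked T), each cluster named by 2 of its leading genes. Points are the libraries and bars 95% Poisson intervals. Plin3 stood at 631 and 619 CPM where Dgat2 stood at 2.32 and 3.15 CPM, and at 117 and 102 CPM where Dgat2 stood at 18.6 and 15.5 CPM.

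The comparison of genotypes covered the 7 types with at least 100 cells in each library. Of 70 pairs of gene and type, 59 had at least 20 UMIs, and of these 4 were past 1.5-fold, 3 higher and 1 lower in Fit2-Mut. In T cell-like cells 2 of 6 members were past it, both higher, where 23.1% of all genes tested in that type were past it in either direction. In endothelial-like cells it was 1 of 8, Bscl2, against a background of 11.2%, and in oligodendrocyte-like cells 1 of 10, Plin2, against 8.27%. None of 8 was past 1.5-fold in microglia-like cells, of 8 in astrocyte-like, of 10 in choroid plexus epithelium-like or of 9 in ependymal-like cells, where 11.8%, 7.28%, 6.08% and 15% of all genes were past it. The 8 of microglia-like cells leave out Plin4 and Fitm2, which were under the limit of 20 UMIs. Fitm2 had 17 and 1 UMIs there, a ratio of 0.0464. The median log2 ratio of the members was -0.08 in microglia-like cells, -0.07 in astrocyte-like cells and 0.39 in T cell-like cells, beside 0.07, 0.01 and 0.05 over all genes of those types.

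In oligodendrocyte-like cells Plin2 was at 8.32 CPM in Fit2-WT (61 UMIs, 6.37 to 10.7 CPM) and at 4.76 CPM in Fit2-Mut (49 UMIs, 3.53 to 6.30 CPM). The intervals did not overlap, and the ratio was 0.573 (0.385 to 0.848). It was below 1 in both clusters, with 10.6 and 6.49 CPM in the cluster led by Klk6 and 5.80 and 2.86 CPM in that led by Opalin. The levels were below those of free RNA, 23.9 and 26.2 CPM. Free RNA made up an estimated 2.33% and 3.44% of oligodendrocyte-like UMIs. With that part subtracted the ratio was 0.503. The microglia markers were at 94.3 and 103 CPM in the cluster led by Klk6 and at 63.3 and 66.0 CPM in that led by Opalin. The choroid plexus epithelium markers were at 825 and 3917 CPM in the former and at 839 and 1821 CPM in the latter, and their part in the result was not tested. A Plin2 UMI was found in 6.79% and 4.84% of cells, so the difference rests on few molecules.

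In T cell-like cells Plin2 was at 18.2 CPM in Fit2-WT (19 UMIs, 10.9 to 28.4 CPM) and at 44.9 CPM in Fit2-Mut (70 UMIs, 35.0 to 56.8 CPM), and the ratio was 2.47 (1.47 to 4.35). This type was made of 2 clusters, which the libraries held in unequal parts. The smaller, led by Ifng and Cd8b1, had 12 cells and 17.4% of T cell-like UMIs in Fit2-WT but 41 cells and 44.6% in Fit2-Mut. Its cells carried all 9 microglia markers, summing to 16232 and 14790 CPM, a level like the 17733 and 17538 CPM of the microglia-like cluster led by Spp1, together with T cell markers at 1333 and 1440 CPM. In the larger T cell-like cluster the microglia markers were at 265 and 328 CPM and the T cell markers at 5551 and 5466 CPM. These values go against the name of the smaller cluster, whose median depth of 15534 and 14915 UMIs was also above the 4161 and 4174 of the larger. The doublet caller had kept these cells, and whether they are doublets was not tested.

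Plin2 was at 54.8 and 82.1 CPM in the cluster with microglia markers and at 10.4 and 15.1 CPM in the larger one. Without the former the Plin2 ratio was 1.45 (0.572 to 3.83) on 9 and 13 UMIs, and that of Gpat4 moved from 1.54 (0.796 to 3.11) to 1.33 (0.592 to 3.09), both below 1.5-fold. Hilpda in the larger cluster had 17.4 CPM in Fit2-WT and 34.8 CPM in Fit2-Mut, a ratio of 2.002 (1.04 to 4.003) on 15 and 30 UMIs. These UMIs lay in 15 and 18 cells, 8.11% and 9.68% of them, and in Fit2-Mut 5 cells held 56.7% and a single cell 7. The pairs past 1.5-fold then numbered 3 in place of 4, and in the larger cluster 11.1% of all genes were as much higher and 7.12% as much lower.

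**Figure D4:**
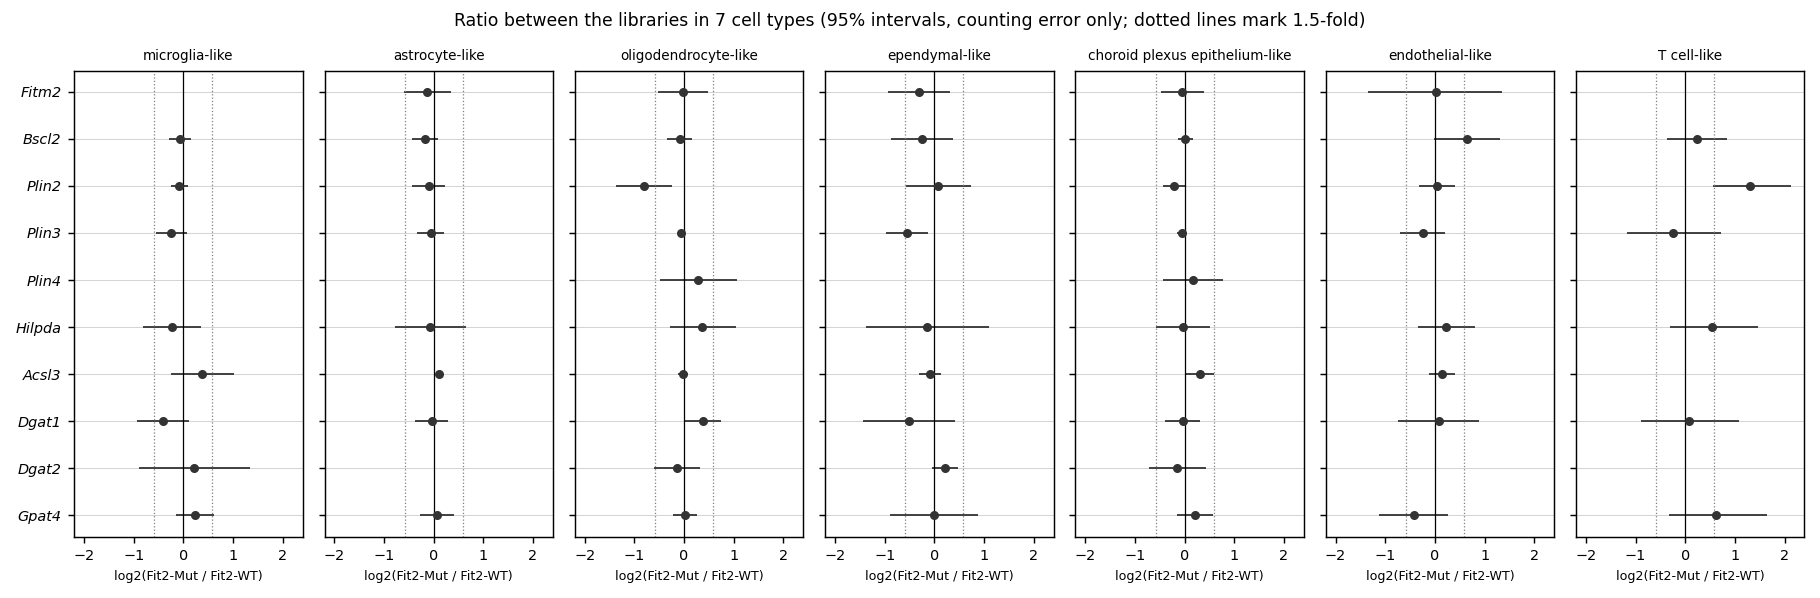
Log2 ratio of Fit2-Mut over Fit2-WT for each gene in 7 cell types, shown where both libraries together had at least 20 UMIs (Fitm2 in microglia-like cells, with 18, is therefore not drawn). Bars are 95% intervals of counting error, the solid line is no difference and the dotted lines are 1.5-fold. Plin2 in T cell-like cells lies at 1.31 and Plin2 in oligodendrocyte-like cells at -0.80, and most other points lie between the dotted lines.

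Smaller differences with an interval that leaves out 1 were seen for 4 further pairs. In all, 6 of the 59 pairs had such an interval, which covers counting error only. The same share over all genes was not computed, so this count has no background. Plin3 in ependymal-like cells was at 93.6 CPM in Fit2-WT and 64.0 CPM in Fit2-Mut, a ratio of 0.684 (0.512 to 0.913). Choroid plexus epithelium markers in those cells were at 7520 and 2983 CPM, and their part was not tested. Dgat1 in oligodendrocyte-like cells was at 13.2 and 17.2 CPM, a ratio of 1.30 (1.01 to 1.68). Acsl3 in choroid plexus epithelium-like cells was at 10.96 and 13.5 CPM, a ratio of 1.23 (1.01 to 1.505), under the free RNA level of that gene, and Acsl3 in astrocyte-like cells is given above. For well-counted pairs the intervals were narrow: Plin2 in microglia-like cells had a ratio of 0.946 (0.842 to 1.06), Plin3 in oligodendrocyte-like cells 0.959 (0.913 to 1.01), and Bscl2 in choroid plexus epithelium-like cells 1.01 (0.906 to 1.12). Dgat2 in ependymal-like cells had 1.16 (0.968 to 1.39).

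Other genes of droplet biology were read from 5 lists with 79 genes, of which 78 were in the files. Over the 7 types, 395 pairs of gene and type had at least 20 UMIs and 40 were past 1.5-fold, 28 higher and 12 lower in Fit2-Mut, or 10.1%. All genes tested in these types, weighted by the pairs each type gave, had 11.2% past it, so the lists together were near the background. The list medians ran from -0.18 to 0.31 on the log2 scale. The list of other synthesis genes (93 pairs) had 6 higher and 0 lower, that of other droplet proteins (76 pairs) 3 and 1, and that of lipolysis (35 pairs) 1 and 1. These are 6.45%, 5.26% and 5.71% of pairs, where all genes weighted in the same way had 11.3%, 11.6% and 11.1%. In microglia-like cells no gene of these 3 lists was past it, out of 14, 10 and 6, beside 11.8% of all genes.

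Of the synthesis list, Lpin1, a phosphatidate phosphatase that makes diacylglycerol, had 51.7 and 81.3 CPM in ependymal-like cells (ratio 1.57, 1.14 to 2.19). Lpin2 (52.6 and 82.8 CPM) and the cholesterol-esterifying Soat1 (44.0 and 78.3 CPM) were past 1.5-fold in T cell-like cells with the cluster of microglia markers included. Without it their ratios were 1.03 (0.628 to 1.69) and 1.54 (0.917 to 2.63). Agpat4, an acyltransferase with the most UMIs of that list, had a ratio of 0.983 (0.945 to 1.02) in oligodendrocyte-like cells. Of the droplet proteins, Cidea, which enlarges droplets by fusion, was at 58.8 and 37.2 CPM in ependymal-like cells (ratio 0.632, 0.433 to 0.920). Snx14, a tether of the reticulum at droplets, was there at 21.4 and 38.6 CPM (1.80, 1.10 to 3.04). Mgll, which cleaves monoglyceride, was at 412 and 349 CPM in astrocyte-like cells (0.847, 0.803 to 0.894), and Lipa, the acid lipase of lysosomes, at 113 and 124 CPM in microglia-like cells (1.10, 0.995 to 1.22).

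The hypoxia-responsive list (105 pairs) had 8 higher and 5 lower, or 12.4% against 11.2% of all genes weighted to the same types. Endothelial-like cells had 3 of 15 higher and 0 lower, where 5.45% of all genes were as much higher: Adm, a vasodilator peptide (40.9 and 80.5 CPM, ratio 1.97, 1.47 to 2.66), the mTOR inhibitor Ddit4 (25.8 and 50.4 CPM, 1.95, 1.34 to 2.86) and the collagen hydroxylase P4ha1 (28.5 and 51.7 CPM, 1.81, 1.27 to 2.62). Hilpda in those cells had a ratio of 1.17 (0.789 to 1.74). P4ha1 was also higher in ependymal-like cells (57.9 and 95.7 CPM) and T cell-like cells (63.1 and 157 CPM). Without the T cell-like cluster of microglia markers the latter were 39.4 and 52.1 CPM, a ratio of 1.32 (0.830 to 2.13). The oxygen sensor Egln3 was at 31.2 and 47.4 CPM in microglia-like cells (1.52, 1.27 to 1.83). It was the only 1 of 16 higher there, while 2 (Ndrg1 and Car9) were lower, and the list median was -0.03 on the log2 scale. Among all genes of that type 8.25% were as much higher and 3.59% as much lower. Adm was past 1.5-fold higher in astrocyte-like cells and lower in choroid plexus epithelium-like cells, and Ndrg1 was lower in ependymal-like cells. In oligodendrocyte-like cells, Ankrd37 was at 8.19 and 3.79 CPM (0.463, 0.301 to 0.705) and the lactate dehydrogenase gene Ldha at 8.32 and 15.9 CPM (1.92, 1.42 to 2.62), so the list did not move one way there.

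The list of PPARs and their target genes (86 pairs) had 10 higher and 5 lower, or 11.6% and 5.81% of pairs, beside 6.58% and 4.34% of all genes weighted to the same types. Pairs of a gene in several types share the gene, and this difference was not tested. The uncoupling protein gene Ucp2 was at 3.82 and 9.92 CPM in oligodendrocyte-like cells (ratio 2.60, 1.69 to 4.10). Angptl4, an inhibitor of lipoprotein lipase, was at 37.7 and 24.2 CPM in endothelial-like cells (0.643, 0.420 to 0.972). Pparg in astrocyte-like cells (2.81 and 5.12 CPM) and the acyl-CoA thioesterase Acot1 in microglia-like cells (4.34 and 6.83 CPM) were past 1.5-fold on 60 and 75 UMIs in both libraries together. Plin2, itself a known PPAR target, had ratios of 0.931 in astrocyte-like, 1.03 in endothelial-like and 0.573 in oligodendrocyte-like cells. Microglia-like, ependymal-like and choroid plexus epithelium-like cells had 0.946, 1.05 and 0.866. In T cell-like cells its ratio was 2.47 with the cluster of microglia markers and 1.45 without it.

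Genes with the most similar pattern were sought by Pearson's r of log2(CPM + 1) over 28 profiles, 14 types in each library, among 14107 genes with at least 200 UMIs. The 2 profiles of a type share its depth and composition, so r is a description. Nearest to Fitm2 were Cnn3 (r = 0.853), Agbl3 (0.849) and Cldn12 (0.847), all highest in ependymal-like cells. Nearest to Dgat2 was Cfap43, a gene of cilia (0.871), to Plin3 Nacc2 (0.879), to Plin2 Gcnt2 (0.888) and to Acsl3 Prkd1 (0.929) and Gphn (0.929). Nearest to Bscl2 were Manf (0.832), Pdia6 (0.811) and Fkbp2 (0.806), known as genes of protein folding in the reticulum. Nearest to Dgat1 was Fbxl5 (0.816), to Gpat4 Sept2 (0.872) and to Hilpda Tspan13 (0.782). Among the members, r was highest between Fitm2 and Acsl3 (0.62) and lowest between Bscl2 and Dgat1 (-0.60).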

How the data were processed

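Dissociated whole-brain cells of 2 libraries were read. The authors' deposited files give raw UMI counts, whole numbers with no scaling, for every gene and barcode, cells or not. The build is mm10 and the aligner Cell Ranger, in version 7.1.0 per the file headers and 7.0.0 per the submitters' processing notes. The annotation release and the use of intronic reads are not given in the sources used here.

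Kept barcodes had at least 1000 UMIs, 500 genes and at most 10% mitochondrial UMIs, and doublets called by Scrublet (Scanpy 1.11.5) in each library at 0.8% per 1000 barcodes were removed. Leiden clustering at resolution 1 used 2000 variable genes without the members and pathway genes, 30 components and 15 neighbours. It gave 28 clusters, named from 21 marker lists. A name needed at least 3 markers and more than 0.5 of its list, each 2-fold or more above the remaining cells and found in 10% of the cluster's cells or more. "More than" in place of "at least" 0.5 was set after a cluster with 4 of 8 astrocyte markers had been seen, and it stayed unnamed, with 28 and 45 cells. Another, with 41 and 44 cells, stayed unnamed because it was shallow.

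Counts were summed per type and library. No test across cells was made, since cells are not replicates. The members, lists and rules were chosen with earlier results of these data known. All 10 members are named. Of each list, the named genes come from the 3 with most UMIs and from those past 1.5-fold on at least 50 UMIs, and of all other genes from the 3 most like each member. Not all of these are printed, and Plin4 was too sparse for the last. Ratios and their intervals, computed with scipy 1.17.1, were tried on simulated Poisson counts with no variation between cells or libraries. That simulation could not show how the intervals behave where such variation is present. Coordinates come from GENCODE M21 on GRCm38 (mm10). Alternatives used edgeR 4.0.16 for TMM scaling only.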

Additional observations from a re-analysis of the deposited data

Results flagged for a closer look

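The unnamed cluster led by Npy, Frzb and Foxd3, with 28 Fit2-WT and 45 Fit2-Mut cells, entered no comparison between cell types but held UMIs of several members above the limit that a count of 0 allows. In Fit2-Mut it had Acsl3 at 371 CPM, Plin2 at 150.0 CPM, Plin3 at 92.0 CPM and Gpat4 at 52.6 CPM. In Fit2-WT the same genes were at 265, 111, 80.3 and 24.7 CPM. The ratios were 1.40 (0.986 to 2.01) for Acsl3, 1.35 (0.782 to 2.44) for Plin2, 1.15 (0.592 to 2.36) for Plin3 and 2.13 (0.713 to 8.57) for Gpat4, all with intervals that hold 1. These genes were listed for being higher in Fit2-Mut on at least 20 UMIs, so ratios above 1 follow from that choice. Bscl2 also had at least 20 UMIs and was not higher, at 49.4 CPM in Fit2-WT and 47.3 CPM in Fit2-Mut (ratio 0.958, 0.396 to 2.55). The cluster also held markers of choroid plexus epithelium at 25499 and 10621 CPM and of oligodendrocytes at 3038 and 3398 CPM, and their part in these levels was not tested.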

How the results depend on the processing

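Of the values of single genes, 756 stayed within the counting interval of the main setting under the alternatives, 58 moved out of it and 7 reversed. A ratio between libraries could count as reversed only if it was past 1.5-fold in the main setting. A smaller ratio could therefore cross 1 and still be among the 756. Without the T cell-like cluster of microglia markers, Bscl2 in T cell-like cells went from 1.17 (0.779 to 1.78) to 0.879. Intervals of sparse pairs are wide, so staying within them says little. The reversals concern the order of the 2 highest types of a gene. Bscl2, fibroblast-like over microglia-like cells, went from 1.37 to 0.921 without the 5 cells of each library with most UMIs. Plin2, neutrophil-like over border-associated macrophage-like cells, went from 1.24 to 0.782 with cells thinned to 1000 UMIs and to 0.975 without those 5 cells. Plin4, vascular smooth muscle-like over oligodendrocyte-like cells, went from 4.54 to 0 in both. With only 5 and 3 UMIs in the former, removal of the 5 cells with most UMIs had to leave 0. That removal also takes a larger part of a type with few cells. For Bscl2 it took 34.4% and 41.4% of fibroblast-like UMIs, but 7.99% and 7.76% of microglia-like ones. With types set by marker share per cell, Fitm2, ependymal-like over astrocyte-like cells, went from 3.23 to 0.929, and Dgat2, ependymal-like over neutrophil-like cells, from 4.01 to 0.830. That setting called 592 and 628 cells ependymal-like in place of 108 and 136.

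The 4 pairs past 1.5-fold became 2 with thinned cells, 8 with free RNA subtracted, 8 with at least 1 UMI in each library as the only limit, 1 with at least 100 UMIs and 1 at a fold of 2. The 40 pairs of the pathway lists became 73 and 13 under those 2 limits on UMIs. The share of all genes past the fold was not computed under these settings. The changed counts are therefore not read as results about the members or the lists. Without the T cell-like cluster of microglia markers, an alternative added after the data were seen, 3 members were past 1.5-fold. Fitm2 in microglia-like cells stayed at ratios from 0.0339 to 0.163 where both libraries had a value, and at most 0.156 with free RNA subtracted and 0.215 without the 5 cells. Thinned cells gave no value. TMM scaling shifted log2 ratios by at most 0.07 in size (microglia-like cells, -0.07).

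No paired analysis was possible because each genotype has 1 library. Depth limits Plin4 everywhere, and Fitm2 in macrophage-like, neutrophil-like and lymphocyte-like cells.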
